A study of Homo sapiens with 18 samples.

Results

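The comparison described here asked how endothelial cells kept with vesicles of CD47-deficient T cells differed from those kept with vesicles of the parental T cells, when both kinds of vesicle had been captured through MHC class 1 (MHC1). It rests on 6 of the 18 arrays of the series: the 3 arrays whose bracketed sample names say JinB8 and MHC against the 3 whose names say Jurkat and MHC. The recipient cells in all 18 arrays were HUVEC, umbilical vein endothelial cells that the labels call a normal endothelial line and that came from ATCC. Jurkat is a human T cell leukaemia line, and JinB8 is a derivative of it that lacks CD47, the receptor for thrombospondin-1 and the ligand of SIRP-alpha. The series has 6 groups of 3 arrays: untreated HUVEC (no time given), HUVEC with IgG beads, and HUVEC with extracellular vesicles (EVs) of Jurkat or of JinB8 captured on beads through CD63 or through MHC1, for 3 days.

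Several properties of the groups limit what they stand for. EVs were purified from conditioned serum-free HITES medium by size exclusion, and the medium of the flasks of a cell line was pooled beforehand, so the arrays of a group may share a vesicle preparation. JinB8 is a single derivative line, so a difference between the vesicles may belong to the line as well as to CD47, and these cannot be told apart. The free text of the sample names gives the 3 JinB8 MHC1+ arrays as JINB11, JINB12 and JINB13, whereas the brackets say JINB8, and they were taken as JinB8. Whether arrays within a group represent different cultures is not stated; the spread behind every p-value is that among these arrays and may be technical. The arrays of a group carry neighbouring serial numbers, so batch and group cannot be told apart. The labels name Trizol and an RNeasy kit while the series' design names a microRNA kit, so how well short RNAs were retained is unknown.

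Most of the genes described below encode small stable RNAs of the nucleus. Small nucleolar RNAs (snoRNAs) pair with other RNAs and direct their chemical modification: box C/D members guide methylation of ribose, and box H/ACA members guide conversion of uridine to pseudouridine, mostly in ribosomal RNA. Small Cajal body RNAs (scaRNAs) guide the same reactions on spliceosomal RNAs. In human cells most of these RNAs are cut out of introns of a containing gene, often one for a ribosomal protein or a non-coding transcript of the SNHG family, and they outlive the spliced transcript. Extracellular vesicles are membrane particles that carry proteins and RNA between cells.

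The values are log2 signals, so a difference of 1 is a doubling. Untreated replicate 3 and IgG bead replicate 3 correlated with the concordant arrays at a median r of only 0.558 and 0.526, and were left out of the fit, which used 16 arrays. The 3 JinB8 MHC1+ arrays had a spread (SD over genes) of 2.01 to 2.06 and a median r of 0.990 to 0.993. Among the Jurkat MHC1+ arrays, replicates 2 and 3 had an SD of 1.92 and 2.02, while replicate 1 was intermediate at 1.74 with a median r of 0.941. The main counts, and list medians that moved with it, are therefore also given without that array (15 arrays).

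A set of 70 genes was higher with JinB8 than with Jurkat MHC1+ vesicles, and 53 of them were snoRNAs or scaRNAs. These 70 were 0.38% of the 18417 genes tested (limma, Benjamini-Hochberg adjusted p under 0.05). A single gene was lower, the microRNA gene MIR320C1, which is 0.00543% of the genes. The called genes differed by 0.67 to 2.43 with a median of 1.29, while the median over all genes was -0.06 and 42.9% of genes were above 0. The JinB8 and Jurkat arrays did not overlap for any of the 70, which were chosen on these same arrays, so this is a description. Over all genes the arrays lay apart in the same direction for 15.5%. At an unadjusted p under 0.05, 3141 genes were higher and 2302 lower.

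**Figure D1:**
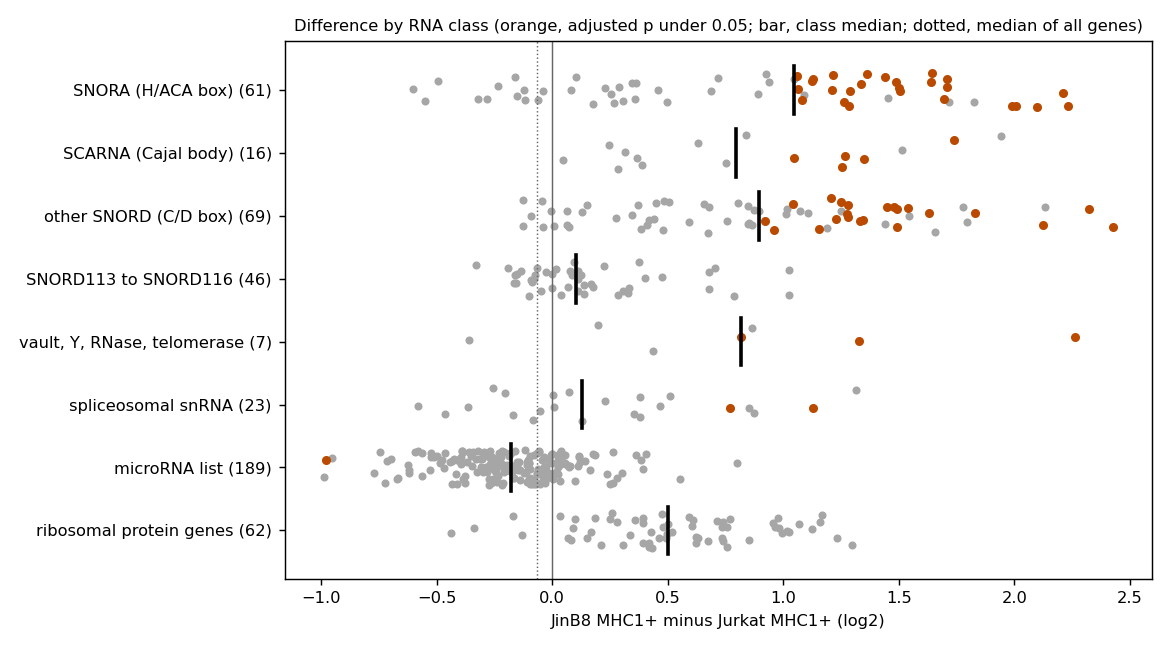
Difference between JinB8 and Jurkat MHC1+ vesicles (log2, horizontal axis) for each measured member of 8 RNA classes (vertical axis, number measured in brackets); orange points have an adjusted p under 0.05, thick bars are class medians and the dotted line is the median of all genes. The medians of the SNORA, SCARNA and other SNORD classes lie at 1.05, 0.80 and 0.90, whereas SNORD113 to SNORD116 and the microRNA list lie at 0.10 and -0.18.

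Without Jurkat MHC1+ replicate 1, 58 genes were higher (0.315%) and none lower in limma, with 1557 and 694 at an unadjusted p under 0.05, and 45.3% of all genes were above 0. Of these 58, 53 were among the 70, which is 75.7% of the first list and 91.4% of the second. All 70 stayed above 0 in each of the 17 other settings in which they were tested, and 20 stayed past the threshold with each of the 6 arrays left out in turn: 10 H/ACA or Cajal body RNAs, 8 C/D box RNAs and the vault RNAs VTRNA1-1 and VTRNA1-2. The count of 70 fell to 6 with all 18 arrays and to 27, 22 and 34 without JinB8 replicate 1, 2 and 3. It rose to 3249, with 2428 lower, without Jurkat replicate 3, which leaves replicates 1 and 2.

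Box H/ACA RNAs held the largest share of calls. Of 61 measured SNORA genes 26 rose, 49 were above 0 and the median difference was 1.05; in 15 arrays 21 rose, with a median of 0.97. SNORA38B, which lies within NOL11, was measured at 8.62, 8.71 and 8.53 with JinB8 vesicles and at 6.69, 6.59 and 6.29 with Jurkat vesicles. The lowest JinB8 array was thus well above the highest Jurkat array, and SNORA38B rose by 2.10 ± 0.16 (SE, 3 against 3 arrays; limma adjusted p = 2.75e-05), a 4.29-fold difference. SNORA37, within MBD2, stood at 8.50, 8.42 and 8.28 against 6.50, 6.97 and 6.82 and rose by 1.64 ± 0.16 (limma adjusted p = 0.000186). The groups were again apart, by more than 1 log2 unit between their nearest arrays.

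SNORA65, within the ribosomal protein gene RPL12, was at 8.69, 8.90 and 8.69 with JinB8 and at 6.19, 7.02 and 6.45 with Jurkat vesicles, a rise of 2.21 ± 0.27 (limma adjusted p = 0.00147). SNORA50A, within CNOT1, was at 8.78, 8.88 and 8.64 against 6.06, 6.98 and 6.57 and rose by 2.23 ± 0.24 (limma adjusted p = 0.000691). SNORA3A, within RPL27A, was at 10.44, 10.45 and 10.53 against 8.29, 8.99 and 8.12 and rose by 2.01 ± 0.26 (limma adjusted p = 0.00236). In all 3 genes the JinB8 arrays lay within 0.3 of each other, while the Jurkat arrays spread more widely. SNORA38B, SNORA37, SNORA65, SNORA50A and SNORA3A remained past the threshold with each of the 6 arrays left out. Their differences ranged there from 1.98 to 2.18, 1.51 to 1.74, 2.03 to 2.44, 1.99 to 2.45 and 1.83 to 2.26.

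H/ACA RNAs at higher levels more often rose, as a description without a test. Of the 30 SNORA genes above the family's median level, 16 rose, 29 were above 0 and their median difference was 1.17. Of the 31 at or below it, 10 rose, 20 were above 0 and the median was 0.31. The level was the mean over the 16 arrays, which include the JinB8 MHC1+ arrays that are high for these RNAs. The calls of SNORD genes outside SNORD113 to SNORD116 did not follow level. Of these, 10 of 34 rose above their median level and 12 of 35 at or below it, with median differences of 1.14 and 0.80. Among the most strongly detected H/ACA RNAs was SNORA23, within the importin gene IPO7, at 11.62, 11.69 and 11.61 against 9.66, 10.57 and 9.60. It rose by 1.70 ± 0.23 (limma adjusted p = 0.00341). Its JinB8 arrays agreed within 0.1 and lay above all Jurkat arrays. Among H/ACA members below 0 the 2 lowest were SNORA80B at -0.60 (limma adjusted p = 0.135) and SNORA70E at -0.55 (limma adjusted p = 0.128).

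Of the measured box C/D RNAs 22 rose, all of them outside the imprinted tandem clusters. Of 69 SNORD genes outside SNORD113 to SNORD116, 22 rose, 63 were above 0 and the median was 0.90. Of the 46 measured copies of SNORD113 to SNORD116, which sit in long repeated arrays on imprinted transcripts, none passed in limma, 31 were above 0, the median was 0.10 and the median level only 3.26. No test of the difference between these subsets was made. Across both C/D subsets 22 of 115 members rose; the count was 24 in 15 arrays, and 10, 9 and 14 without JinB8 replicate 1, 2 and 3. For H/ACA and Cajal body RNAs together, 31 of 77 rose, with 25 in 15 arrays, 14, 11 and 14 without each JinB8 array, and 19 with the array SD as a covariate.

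SNORD42A, within the ribosomal protein gene RPL23A, was at 8.12, 8.21 and 8.03 with JinB8 and at 6.70, 6.94 and 6.88 with Jurkat vesicles. Both groups were tight and separate, and SNORD42A rose by 1.28 ± 0.12 (limma adjusted p = 0.000186). SNORD104, within the non-coding gene SNHG25, was at 8.62, 8.62 and 8.30 against 6.95, 7.16 and 6.96 and rose by 1.49 ± 0.16 (limma adjusted p = 0.000691).

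The largest rise of all was that of SNORD38B, measured at 6.83, 6.68 and 6.41 against 3.53, 4.69 and 4.42. It came to 2.43 ± 0.28 (limma adjusted p = 0.00122) and was 2.09 without Jurkat replicate 1, the lowest array. SNORD38A rose by 1.34 ± 0.17 (limma adjusted p = 0.00207); the pair is similar in sequence, so the array may not separate their signals. SNORD61, within RBMX, shows what Jurkat replicate 1 adds: it was at 8.87, 8.89 and 8.63 against 5.11, 7.11 and 7.20. The rise was 2.32 ± 0.38 (limma adjusted p = 0.0115) with that array and 1.64 (adjusted p = 3.24e-05) without it, and the groups stayed apart either way.

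Of the 16 Cajal body RNAs all were above 0, with a median of 0.80, and 5 rose: SCARNA4, SCARNA6, SCARNA8, SCARNA9L and SCARNA10. SCARNA4 was at 5.70, 6.06 and 6.41 against 4.26, 4.46 and 4.24 and rose by 1.74 ± 0.26 (limma adjusted p = 0.00653). Its JinB8 arrays were less alike than those of the snoRNAs above, but all lay above the Jurkat arrays. The call of SCARNA4 held with each array left out, while the other 4 lost theirs without at least 1 JinB8 array (largest limma adjusted p 0.0935 for SCARNA8 and 0.201 for SCARNA6).

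Other nuclear and cytoplasmic small RNAs rose with them. Of 7 measured vault, Y, RNase and telomerase RNAs, 3 rose and 6 were above 0, with a median of 0.82. VTRNA1-1, an RNA of the large vault particle, was at 6.04, 6.06 and 6.11 with JinB8 and at 3.39, 4.17 and 3.85 with Jurkat vesicles, a rise of 2.26 ± 0.29 (limma adjusted p = 0.00252). The 3 JinB8 arrays were almost equal and lay far above the others. VTRNA1-2 was at 5.10, 5.63 and 4.97 against 4.11, 3.78 and 3.82 and rose by 1.33 ± 0.19 (limma adjusted p = 0.00589). VTRNA1-3 differed by 0.87 ± 0.21 (limma adjusted p = 0.0733) and by 1.07 in 15 arrays (adjusted p = 0.0259), where it passed.

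RMRP, the RNA of the RNase MRP enzyme that cuts the ribosomal RNA precursor, was at 12.50, 12.54 and 12.44 against 11.55, 11.85 and 11.63. It rose by 0.82 ± 0.13 (limma adjusted p = 0.0105) at a level close to the top of the scale. Of 23 spliceosomal RNA genes 2 rose and 15 were above 0, with a median of 0.13. RNU4ATAC, an RNA of the minor spliceosome, was at 11.74, 11.50 and 11.40 against 10.03, 10.83 and 10.39 and rose by 1.13 ± 0.19 (limma adjusted p = 0.0127). RNVU1-15, a variant of U1, rose by 0.77 ± 0.15 (limma adjusted p = 0.0386), but not in 15 arrays (0.75, adjusted p = 0.0846). RMRP and RNU4ATAC passed in 15 arrays (adjusted p = 0.0237 and 0.0241) but each lost its call without at least 1 JinB8 array (largest adjusted p 0.0798 and 0.0881).

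**Figure D2:**
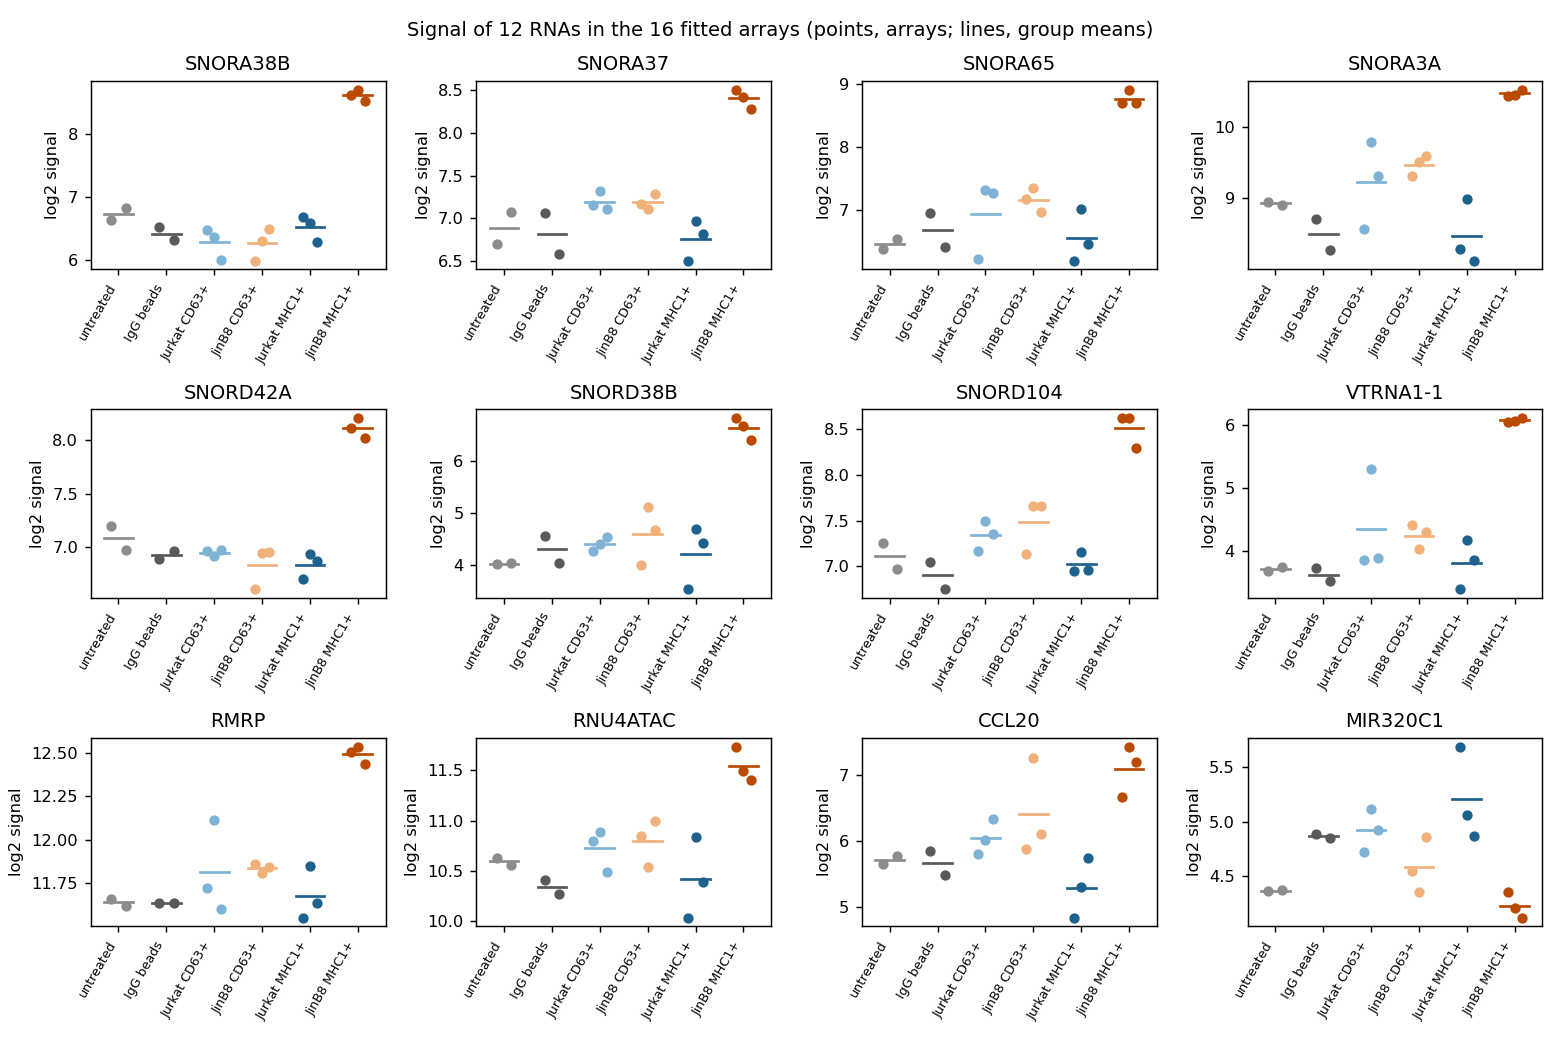
Log2 signal (vertical axis, own scale in each panel) of 12 RNAs in the 16 arrays of the fit, by group (horizontal axis); points are arrays and lines are group means, with 2 arrays in the untreated and bead groups and 3 in each vesicle group. For the 10 small RNAs other than MIR320C1 the JinB8 MHC1+ arrays stand above every other array, as for SNORA38B at 8.53 to 8.71 against a highest value of 6.69 in the Jurkat MHC1+ group; CCL20 overlaps with 1 JinB8 CD63+ array and MIR320C1 is lower in JinB8 than in Jurkat MHC1+ arrays.

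The same pair of cell lines was compared with vesicles captured through CD63, on 6 other arrays. There no gene passed in limma (0% of 18417), and 329 genes were higher and 411 lower at an unadjusted p under 0.05. The 70 genes that rose in the MHC1 comparison had a median difference of -0.05 with CD63 capture, from -0.64 to 0.37, and 27 of them were above 0 against 46.7% of all genes. SNORA38B differed there by -0.01 ± 0.16, SNORA37 by -0.0036 ± 0.16 and SNORD42A by -0.11 ± 0.12.

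The interaction, which tests whether the cell line difference itself differed between the captures, passed for 3 genes (0.0163%; 3189 genes above 0 and 2101 below at an unadjusted p under 0.05). These were SNORA38B at 2.11 ± 0.23 (limma adjusted p = 0.00255), SNORD42A at 1.39 ± 0.17 (adjusted p = 0.00783) and SNORA37 at 1.64 ± 0.22 (adjusted p = 0.0134). In 15 arrays 15 genes passed (0.0814%), and all were snoRNAs or scaRNAs, including SNORD61 (adjusted p = 0.00337) and SNORD38B (adjusted p = 0.0442). The differences of VTRNA1-1 (2.37 ± 0.42, adjusted p = 0.0709) and CCL20 (1.43 ± 0.44, adjusted p = 0.138) did not pass in the 16 arrays, so for these genes a difference between the captures was not shown. The count of 3 fell to 0 with all 18 arrays, and was 1786 without JinB8 CD63+ replicate 2 and 4682 without Jurkat MHC1+ replicate 3.

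**Figure D3:**
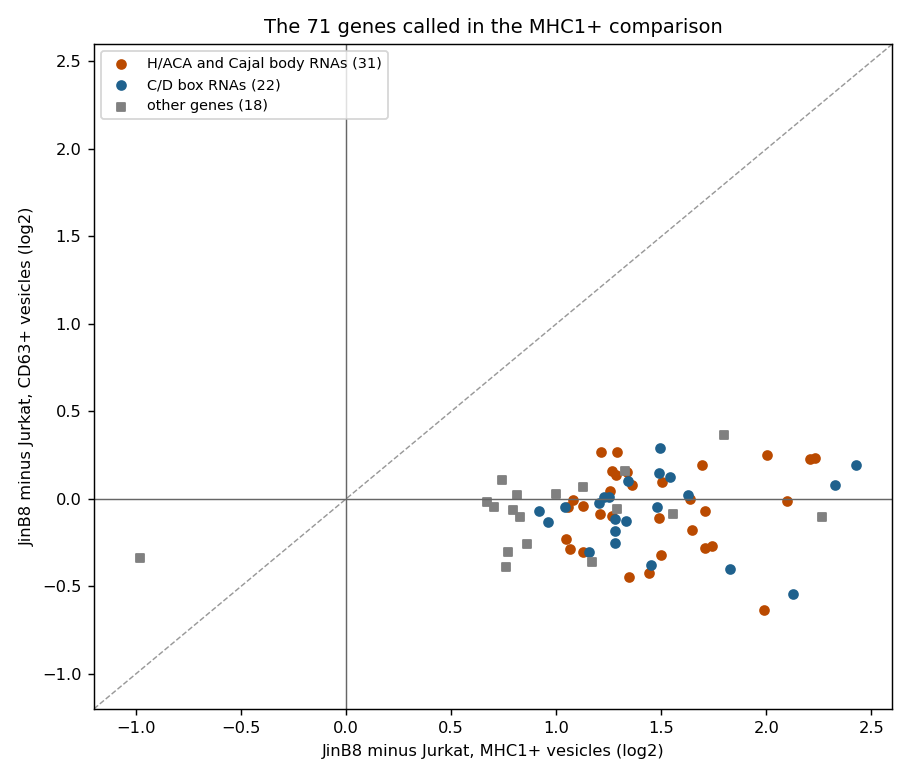
Difference between JinB8 and Jurkat vesicles with MHC1 capture (horizontal axis, log2) and with CD63 capture (vertical axis, log2) for the 71 genes called in the MHC1 comparison; the dashed line marks equal differences. The genes were chosen on the horizontal axis, so their spread there is a description; on the vertical axis the 70 higher genes lie from -0.64 to 0.37 around a median of -0.05.

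Against the 4 concordant control arrays (untreated and IgG beads, replicates 1 and 2), the JinB8 MHC1+ group stood apart for most of the 70 genes. These comparisons share the controls with each other and the vesicle arrays with the comparison that chose the genes, so they are given side by side as a description. The 70 genes had a median of 1.19 above the controls with JinB8 MHC1+ vesicles and -0.15 with Jurkat MHC1+ vesicles. Of the 70, 49 passed in limma above the controls with JinB8 MHC1+ vesicles, against 0.386% of all genes. With Jurkat MHC1+ vesicles 0 of the 70 passed in either direction. Not all followed the medians: RNVU1-15 was at 0.19 with JinB8 and -0.57 with Jurkat MHC1+ vesicles, neither past the threshold. In 68 of the 70 the lowest JinB8 array was above the highest control, which holds for 8.36% of all genes. SNORA38B was at 6.58 ± 0.22 (SD, n = 4) in the controls, 6.52 ± 0.21 (n = 3) with Jurkat MHC1+, 6.28 ± 0.24 with Jurkat CD63+, 6.27 ± 0.26 with JinB8 CD63+ and 8.62 ± 0.09 with JinB8 MHC1+ vesicles. VTRNA1-1 was at 3.66 ± 0.10 in the controls, 3.80 ± 0.39 with Jurkat MHC1+, 4.24 ± 0.20 with JinB8 CD63+, 4.34 ± 0.82 with Jurkat CD63+ and 6.07 ± 0.04 with JinB8 MHC1+ vesicles. For SNORA38B the other 4 means lay between 6.27 and 6.58. For VTRNA1-1 they lay between 3.66 and 4.34, with JinB8 CD63+ above the controls by more than either SD. The JinB8 MHC1+ mean was the highest for both.

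The genes that contain these small RNAs did not pass the test. By position in the RefSeq annotation 189 of the 192 measured snoRNAs and scaRNAs lie within another gene, and the 53 that rose lie within 47 different genes. Of these 53, 15 lie within 13 ribosomal protein genes and 13 within 11 non-coding hosts counted by name (SNHG genes, GAS5, ZFAS1 and EPB41L4A-AS1). For 33 of the 53 the containing gene was measured as well (31 genes). None of the 31 passed in limma, 29 were above 0, and their median difference was 0.38 (0.22 in 15 arrays), against 1.35 for the 33 small RNAs. The 33 were chosen for a large difference, so that each exceeded its containing gene is a description. Of the 58 uncalled pairs the small RNA exceeded its containing gene in 34; SNORA80B, at -0.60 within ODC1 at 1.02, went the other way. Over the 91 measured pairs of all kinds Spearman's rho was 0.26, given as a description because pairs share arrays and containing genes.

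MBD2, a reader of methylated DNA, differed by 0.10 where SNORA37 inside it rose by 1.64, and CNOT1, the scaffold of the CCR4-NOT deadenylase complex, by 0.13 where SNORA50A rose by 2.23. MBD2 and CNOT1 turned to -0.14 and -0.17 in 15 arrays. PRRC2A differed by -0.47 where SNORA38 rose by 1.06 ± 0.16 (limma adjusted p = 0.00772). At the other end RPL27A differed by 1.02 (limma adjusted p = 0.0701), still less than the 2.01 of SNORA3A. Signal from the intron of a longer precursor cannot be separated on the array from the mature small RNA. The proteins of snoRNA particles and their assembly factors were given by 18 measured genes: none passed in limma, 16 were above 0 and the median was 0.37. That median was 0.22 in 15 arrays and 0.0055 with the array SD as a covariate. Among the 18 were ZNHIT3 at 0.53, NPM1 at 0.61 (1 of its other 3 probe sets at -0.25), NOP10 at 0.68 and SHQ1 at 0.89 (limma adjusted p from 0.089 to 0.115).

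**Figure D4:**
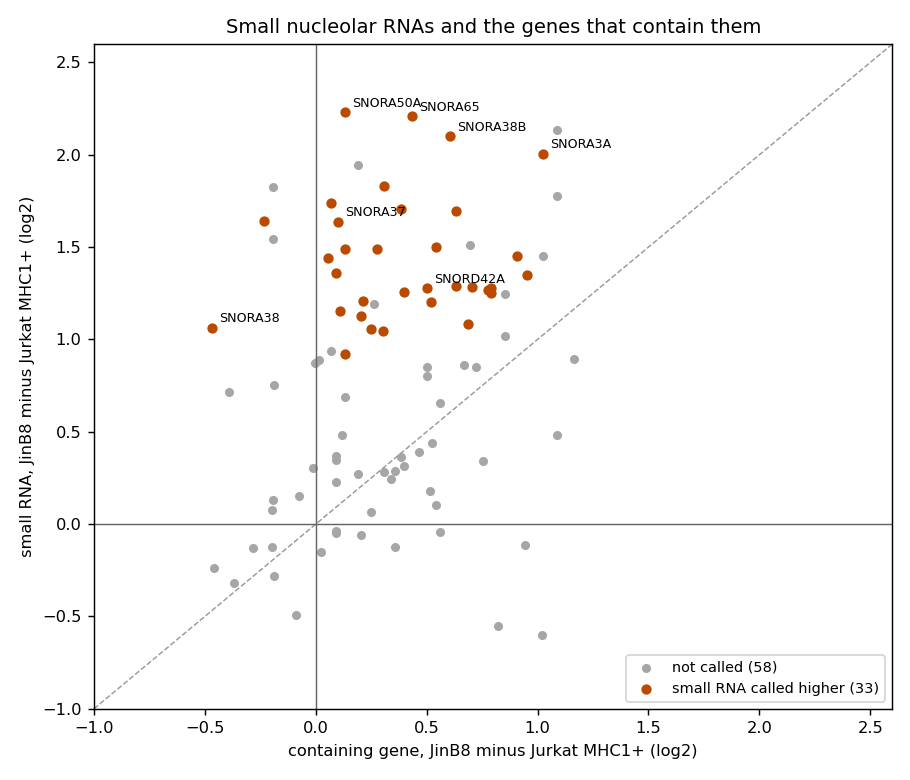
Difference of a snoRNA or scaRNA (vertical axis, log2) against that of the gene that contains it (horizontal axis, log2), JinB8 minus Jurkat MHC1+ vesicles, for the 91 pairs with both measured; orange points are the 33 small RNAs that rose and the dashed line marks equality. The 33 were chosen on the vertical axis and lie above the line, with containing genes between -0.47 and 1.02.

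Ribosomal protein genes typically start transcription within a run of pyrimidines, the mark of messages whose translation follows growth signals. The windows below show 20 bases on each side of the annotated start (RefSeq, GRCh38.p14) for a selection of containing genes of RNAs that rose. Capitals mark a run of C followed by at least 4 further C or T that begins within 5 bases of the start. The base just before the run had to be neither C nor T, and the transcribed strand was searched.
RPL12 (contains SNORA65; chr9:127451387-127451426, minus strand): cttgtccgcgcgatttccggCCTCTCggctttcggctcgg
RPL27A (contains SNORA3A; chr11:8682772-8682811, plus strand): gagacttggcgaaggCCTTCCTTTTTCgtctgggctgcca
RPLP2 (contains SNORA52; chr11:809947-809986, plus strand): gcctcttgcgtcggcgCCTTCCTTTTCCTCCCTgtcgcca
SNHG8 (contains SNORA24; chr4:118278742-118278781, plus strand): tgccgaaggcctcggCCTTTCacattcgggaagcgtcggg
NOL11 (contains SNORA38B; chr17:67717916-67717955, plus strand): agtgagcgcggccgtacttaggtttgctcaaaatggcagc
MBD2 (contains SNORA37; chr18:54224650-54224689, minus strand): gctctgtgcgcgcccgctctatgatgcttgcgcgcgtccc
The 4 upper windows hold the run and the starts of NOL11 and MBD2 do not, although the RNAs they contain were among the clearest rises. The selection holds the run more often than the full set. IPO7, PRRC2A and KHDC4, which contain SNORA23, SNORA38 and SCARNA4 and are not shown, do not hold the run. Of the 36 containing genes of called RNAs with a promoter entry 8 hold it, which is 22.2%. The share was 17% of the 88 containing genes of all measured snoRNAs and scaRNAs, and 13.5% of the 52 with no called RNA. It was 13.9% of 27305 promoters of the table and 51% of 51 ribosomal protein genes. These shares leave out starts inside a longer run of C and T that begins farther away, as at RPL7A, RPL13A, RPL21 and IPO7. A match is a description of these letters only.

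Genes of the microRNA list lay mostly below 0, as did protein-coding genes at low levels. The protein-coding medians were -0.15 and -0.23 in the 2 lower of 4 bins by level. Of 189 microRNA list genes measured, none rose in limma, 1 fell, 39 were above 0 and the median was -0.18. That median was -0.07 in 15 arrays and -0.0073 with the array SD as a covariate. The 173 of them that RefSeq types as microRNA genes had the same median of -0.18, with 34 above 0, at a median level of 3.62, near the bottom of the scale. MIR320C1 was at 4.35, 4.21 and 4.12 with JinB8 and at 5.69, 5.06 and 4.86 with Jurkat vesicles. The groups did not overlap, with Jurkat replicate 1 the farthest, and MIR320C1 fell by 0.98 ± 0.19 (limma adjusted p = 0.0329). Without that array the difference was -0.74 (adjusted p = 0.0582) and with the array SD as covariate its adjusted p was 0.13, so the call was lost in both.

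The mature miR-320c is shown with RefSeq relatives that share the seed (bases 2 to 8, in capitals), 1 gene for each mature name. The seed decides which messages a microRNA can pair with.
miR-320c (MIR320C1, chr18:21683559-21683578, plus strand): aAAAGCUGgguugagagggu
miR-320b (MIR320B1, chr1:116671787-116671808, plus strand): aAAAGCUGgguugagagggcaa
miR-320d (MIR320D1, chr13:40727828-40727846, minus strand): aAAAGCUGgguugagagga
miR-4429 (MIR4429, chr2:11540652-11540671, minus strand): aAAAGCUGggcugagaggcg
MIR320C2 gives the same mature miR-320c, and MIR320B2 and MIR320D2 give the same miR-320b and miR-320d. Of all these genes only MIR320C1 was tested as a gene of its own here. The array signal is that of the precursor gene, not of the mature strand. MIR21 differed by 0.80 ± 0.21 (limma adjusted p = 0.085) and MIR30C2 by -0.95 ± 0.24 (limma adjusted p = 0.0783), neither past the threshold. MIR21 was at 8.04, 8.14 and 8.16 against 6.91, 7.31 and 7.72, without overlap.

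Of 16902 protein-coding genes 12 rose, and none fell in limma (0 at the adjusted threshold). CCL20, the chemokine ligand of CCR6, was at 6.66, 7.43 and 7.20 with JinB8 and at 4.84, 5.31 and 5.74 with Jurkat vesicles, a rise of 1.80 ± 0.31 (limma adjusted p = 0.0186) and of 1.57 in 15 arrays (adjusted p = 0.0495). The groups did not overlap, but CCL20 was also at 5.88 to 7.25 with JinB8 CD63+ vesicles. TXN, thioredoxin, a reducing enzyme, was at 10.72, 10.97 and 10.84 against 8.44, 9.51 and 9.90 and rose by 1.56 ± 0.27 (limma adjusted p = 0.0205), or by 1.14 in 15 arrays (adjusted p = 0.00978). In the controls TXN was at 10.19 ± 0.42 (SD, n = 4), so the Jurkat mean of 9.29 ± 0.76 lay below the controls and the JinB8 mean of 10.84 ± 0.13 above them, neither difference past the threshold (adjusted p = 0.471 and 0.489). UXT, a prefoldin-like chaperone, rose by 0.86 ± 0.14 (limma adjusted p = 0.011) and was the third protein-coding gene past the threshold in both fits.

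The other 9 protein-coding genes passed in the 16 arrays alone. SDHD, an anchor subunit of respiratory complex II, was at 9.37, 9.53 and 9.43 against 8.07, 8.14 and 8.62 and rose by 1.17 ± 0.22 (limma adjusted p = 0.0296); a second SDHD probe set differed by 0.67 (adjusted p = 0.0922). TIMM8B, a chaperone of mitochondrial import, rose by 0.76 ± 0.15 (adjusted p = 0.0368 in limma), and its second probe set was at 0.79 (adjusted p = 0.0805). TMEM14C, a mitochondrial membrane protein needed for heme synthesis, rose by 1.29 and ANAPC16, a subunit of the anaphase-promoting complex, by 1.00. LMO4 (a LIM-domain cofactor of transcription), H4C3 (a histone H4 gene), LACTB2, TCEAL8 and CLIC1 (a chloride intracellular channel protein) rose by 0.67 to 0.83, and the other 2 CLIC1 probe sets did not pass. None of the 12 protein-coding genes kept its call with every one of the 6 arrays left out: the largest adjusted p was 0.145 for CCL20, 0.143 for TXN and 0.0816 for UXT.

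Genes of several abundant protein-coding groups lay above 0 together without passing the test. Of 62 cytosolic ribosomal protein genes none passed in limma, 58 were above 0 and the median was 0.50; RPL31 was the nearest at 0.74 ± 0.16 (limma adjusted p = 0.0599). Of 80 respiratory chain genes 1 rose (SDHD), 71 were above 0 and the median was 0.54; COX5B, a subunit of cytochrome c oxidase, was at 0.84 ± 0.17 (limma adjusted p = 0.0501). Their array means were 9.87 to 9.98 with JinB8 against 9.15 to 9.61 with Jurkat vesicles for ribosomal protein genes, and 7.69 to 7.73 against 6.90 to 7.39 for the respiratory chain, each lowest in Jurkat replicate 1.

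A measure of array spread moved with these lists. All genes were ranked by level and cut into 4 equal bins, which hold 3907, 4120, 4375 and 4500 protein-coding genes from lowest to highest. These protein-coding genes had a median difference of -0.15, -0.23, 0.11 and 0.25, and in 15 arrays of -0.06, -0.07, 0.05 and 0.08. With the array SD as a covariate these medians were 0.01, 0.01, -0.01 and -0.04. With that covariate 49 genes rose (0.266%), among them 40 of the 70, and all 70 stayed above 0, by at least 0.46. The ribosomal protein median of 0.50 was 0.41 in 15 arrays and 0.30 with the covariate. The respiratory chain median of 0.54 was 0.42 in 15 arrays and 0.28 with the covariate.

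**Figure D5:**
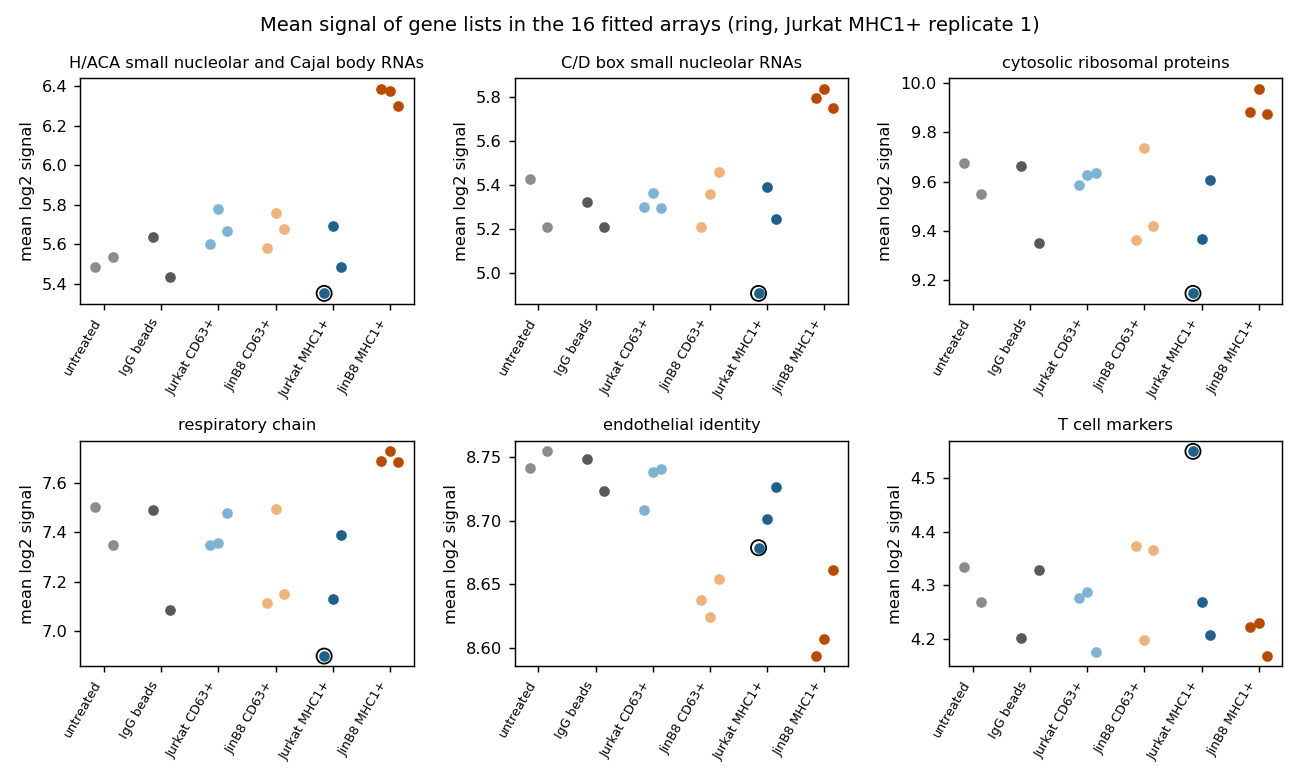
Mean log2 signal (vertical axis, own scale in each panel) of 6 gene lists in each of the 16 arrays, by group (horizontal axis); the ring marks Jurkat MHC1+ replicate 1. The H/ACA and Cajal body list is at 6.30 to 6.39 with JinB8 MHC1+ vesicles against 5.35 to 5.69 with Jurkat MHC1+ vesicles, whereas the endothelial list spans only 8.59 to 8.73 over both groups.

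Endothelial genes had a high list mean in both groups, though single markers varied in level. The 6 defining markers (PECAM1, CDH5, VWF, TEK, ERG and CLDN5) were at 5.94 to 11.85 with JinB8 and 6.09 to 11.98 with Jurkat vesicles. CLDN5 was the lowest, at 5.94 to 6.18 and 6.09 to 6.67, followed by VWF at 6.97 to 7.05 and 6.84 to 7.33. Of 28 endothelial genes none passed in limma, 13 were above 0, the median was -0.03 and the array means were 8.59 to 8.66 with JinB8 and 8.68 to 8.73 with Jurkat vesicles. In 15 arrays 6 of the 28 were above 0 and the median was -0.07, and with the array SD as a covariate it was -0.12. CDH5, the cadherin of endothelial junctions, was at 11.80, 11.76 and 11.85 against 11.98, 11.89 and 11.95, a difference of -0.14 ± 0.10 (limma adjusted p = 0.308). PECAM1 differed by 0.08 ± 0.11 and VWF by -0.07 ± 0.15, and the sign of each turned in some settings (PECAM1 to -0.0015 in 15 arrays, VWF to 0.04 without Jurkat replicate 2).

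Lists of markers of other cell types, the source of the vesicles included, had lower array means than the endothelial list. The 5 defining T cell markers (CD3D, CD3E, CD3G, LCK and CD2) were at 3.38 to 4.55 with JinB8 and 3.43 to 5.01 with Jurkat vesicles. Of all 23 T cell markers 2 were above 0 and the median was -0.18; IL7R was the highest at 1.23 (limma adjusted p = 0.122). The array means of the T cell list were 4.17 to 4.23 against 4.21 to 4.55. The T cell median was -0.04 in 15 arrays, with 7 markers above 0, and turned to 0.05 with the array SD as a covariate. None of 13 monocyte and none of 10 epithelial markers was above 0 in 16 arrays, nor did any pass in limma; in 15 arrays 3 and 1 were above 0. Their array means were 4.36 to 4.40 and 4.88 to 5.03 with JinB8 vesicles. With Jurkat vesicles they were 4.42 to 4.82 and 5.13 to 5.51. Of 15 fibroblast and smooth muscle markers 3 were above 0, with array means of 4.78 to 4.815 with JinB8 and 4.85 to 5.18 with Jurkat vesicles. Protein-coding genes in the 2 lower bins of level as a whole lay below 0 in the 16 arrays (medians -0.15 and -0.23). RNA in a bulk sample does not tell a change in each cell from a change in the mix of cells, nor RNA made by HUVEC from RNA brought in by vesicles.

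Genes of the CD47 pathway in the recipient cells did not pass the test. CD47 itself was at 8.88, 9.10 and 9.13 with JinB8 and at 6.97, 8.59 and 8.84 with Jurkat vesicles, a difference of 0.91 ± 0.35 (limma adjusted p = 0.126) that was 0.33 in 15 arrays (adjusted p = 0.505). The low value of Jurkat replicate 1 made up most of it. THBS1, thrombospondin-1, was at 13.19 to 13.31 against 13.12 to 13.29, a difference of 0.03 ± 0.10, and -0.0088 in 15 arrays. NOS3, the endothelial nitric oxide synthase that thrombospondin and CD47 restrain, differed by -0.36 ± 0.13 (limma adjusted p = 0.114), and CD63, the capture antigen of the other vesicles, by 0.59 ± 0.14 (adjusted p = 0.0733). Over the 18 measured genes of the pathway list 9 were above 0 and the median was 0.01 (0.05 in 15 arrays).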

How the data were processed

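Total RNA of HUVEC was measured on 18 Affymetrix whole-transcript arrays, 3 in each of 6 groups. The log2 values deposited by the authors were made with RMA in Affymetrix Expression Console, per the submitters' processing notes; their versions are not stated there or in the labels, and the log2 scale was read from the values. Of 33297 probe sets, 12083 had no gene and 1754 several symbols. Of the 19460 with 1 symbol, that with the highest mean over 18 arrays was kept per gene, leaving 18417 genes (769 with more than 1 probe set). No filter on level was used.

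Group means over 16 arrays were modelled by lmFit and eBayes of limma 3.58.1 (R 4.3.3; moderated t, two-sided), and p-values adjusted by Benjamini and Hochberg over all genes. Errors are SEs of the model. The fit was tried on simulated data with independent noise for each gene and array, which holds no shift of a whole array in quality. Tables came from pandas 2.3.3 and numpy 2.4.6 and plots from matplotlib 3.10.9, all under Python 3.11.15. Arrays have no read depth; their number limits the precision.

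The comparison, its members and the 37 gene lists were chosen with earlier results of these data known. Names follow a rule: the 12 smallest p-values each way in 16 arrays and 8 in 15 arrays, up to 4 per list, the 8 smallest interaction p-values, and CD47, THBS1, CD63, NOS3, STC1, PECAM1, CDH5 and VWF. Further called genes and containing genes were named after their values were seen. A containing gene is the smallest RefSeq gene (GRCh38.p14) around a small RNA. Other settings tried were all 18, 15, 12 or 6 arrays, filters on level, all probe sets, limma's trend and robust options, quantile normalization again, centring, array weights, the array SD as covariate, a minimum fold of 1.5 and each array left out.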

Additional observations from a re-analysis of the deposited data

Results flagged for a closer look

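The difference between JinB8 and Jurkat vesicles itself differed between MHC1 and CD63 capture for 3 snoRNAs, by a test of that interaction in 12 vesicle arrays of the 16-array limma fit: SNORA38B by 2.11 (adjusted p = 0.00255), SNORD42A by 1.39 (adjusted p = 0.00783) and SNORA37 by 1.64 (adjusted p = 0.0134).

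A signal also lay outside the gene tests. On the array, 76 probe sets carry several symbols of which at least 1 is a snoRNA or scaRNA, and 63 of them have values of their own. In a fit of all 33297 probe sets, chosen after seeing the data, 14 of the 63 were higher with JinB8 MHC1+ vesicles, none was lower, 53 were above 0 and the median was 0.87; over all probe sets 87 were higher (0.261%) and 10 lower in limma. In 34 of the 63 the lowest JinB8 MHC1+ array lay above all 4 concordant controls, as it did in 7.21% of all probe sets. The probe set shared by the SNORD3 copies (U3, which acts in cutting the ribosomal RNA precursor rather than in methylation) was at 11.16 ± 0.14 (SD, n = 3) with JinB8 vesicles against 9.18 ± 0.36 with Jurkat vesicles, a difference of 1.98 ± 0.34 (limma adjusted p = 0.0289).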

How the results depend on the processing

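The count of 70 higher genes was 6 with all 18 arrays, 14 with only the 6 arrays compared, 43 with the 12 vesicle arrays, 33 without the lowest 50% of genes by level, 35 after quantile normalization again, 5 at a minimum fold of 1.5, and 5552 with array weights, whose estimation stopped before it converged. Leaving out 1 array gave 22 to 3249. The count of 1 lower gene was 0 with 18, 12 or 6 arrays, without the lowest 50% of genes, after quantile normalization, with the SD covariate and at the minimum fold, and 5976 with array weights; leaving out 1 array gave 0 to 2428. The interaction count of 3 was 0 with 18 arrays and after quantile normalization, and 8606 with array weights; leaving out 1 array gave 1 to 4682, among them 15 and 9 without Jurkat MHC1+ replicate 1 or 2, 1 without JinB8 MHC1+ replicate 2, and 11 and 5 without Jurkat CD63+ replicate 1 or 2. The causes were not tested.

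Of 100 named genes, the 47 past the threshold kept their sign in up to 18 settings each. Most of these settings could not change the sign of a gene whose groups did not overlap. Of the named genes not past the threshold 5 changed sign in some setting. THBS1 turned to -0.0088 in 15 arrays, -0.20 after quantile normalization, -0.07 with the SD covariate and -0.0023 without JinB8 replicate 3 (0.07 at most with 1 array left out). PECAM1 turned to -0.0015, -0.23 and -0.07 in the first 3 of these (0.14 at most with 1 array left out), and VWF, -0.20 at the lowest, to 0.04 without Jurkat replicate 2. MBD2 turned to -0.14 in 15 arrays and after quantile normalization, -0.20 with array weights and -0.17 with the SD covariate, and CNOT1 to -0.17, -0.11, -0.12 and -0.28; with other arrays left out they reached 0.25 and 0.30. No paired analysis was possible because the labels give no replicate numbers. Genes near the bottom of the scale cannot show a fall.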

Other observations

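Lists of other endothelial programmes had no member past the threshold in limma in the MHC1 comparison beyond those named above. Of 32 type I interferon-stimulated genes 28 were above 0, with a median of 0.35 (0.20 in 15 arrays and 0.07 with the array SD as a covariate). Against the concordant controls their median was -0.0025 with JinB8 and -0.40 with Jurkat MHC1+ vesicles. IFI27 was at 0.58 (limma adjusted p = 0.061) and IFIT1, an RNA-binding antiviral protein, at 0.88 (limma adjusted p = 0.0701). Of 17 cholesterol synthesis genes 15 were above 0, with a median of 0.69 (0.41 in 15 arrays and 0.23 with the array SD as a covariate). ACAT2 was at 8.04, 8.43 and 8.24 against 5.43, 7.11 and 7.50, so Jurkat replicate 1 lay far below the rest. Of 29 genes of G2 and mitosis 19 were above 0 in 16 arrays and 13 in 15 arrays, with medians of 0.11 and -0.04.

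Of 38 collagen and matrix genes 15 were above 0, with a median of -0.07 and a highest value of 0.91, and of 27 genes of Notch and angiogenesis 11 were above 0, with a median of -0.10. Among genes below 0 that did not pass in limma were NOTCH1 at -0.57, SEMA3F at -0.51, the basement membrane proteoglycan HSPG2 at -0.65, BGN at -0.58 and ENG, a co-receptor of TGF-beta, at -0.43 (adjusted p from 0.0683 to 0.0735). In each the JinB8 and Jurkat arrays did not overlap, which holds in that direction for 16.6% of all genes. The genes were picked by their values in these same arrays, so this is a description. Of the inflammatory genes besides CCL20, PTGS2 was at 0.97 and CXCL8 at 0.74 (both adjusted p = 0.0701).

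By RefSeq gene length, measured SNORA genes had a median of 134 nucleotides, SNORD genes outside the imprinted clusters 75 and microRNA genes 85. Spearman's rho between length and difference was -0.28 over these 69 SNORD genes and -0.06 over the 61 SNORA genes, given as a description.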
